A study of Mus musculus with 4 samples.

Results

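Thrombospondin 1 (Thbs1) and a pair of CCN genes, connective tissue growth factor (Ctgf, now named Ccn2) and cysteine-rich angiogenic inducer (Cyr61, now named Ccn1), were described in sham-operated mouse heart. They were 3 loci of 35299 in the table. Thbs1 was taken by its locus identifier, XLOC_017435, and Ctgf and Cyr61 as the locus with a UCSC transcript model and the highest mean count in the genomic interval of each gene. The genes were chosen by their measured values in these libraries, that is by their level and spread between hearts, so these are given as a description with no test. At the interval of Ctgf the rule had 2 loci to choose from, with means of 7658 and 458 normalised reads, and at that of Cyr61 only 1.

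The study profiled poly(A)-selected long RNA of adult mouse heart in 1 group, Sham, of 4 biological replicates. The mice were C57BL/6J, 12 weeks old, and were sampled 2 weeks after sham surgery, at the site that would lie beside an infarct. The free-text label of replicate 4 speaks of an infarct border without the word sham, while its other labels call it sham. The libraries are headed 3RL, 7LR, 8R and 12RL, names that are in no label, so none can be tied to a replicate number. There is no second condition, and comparisons are between genes and between the 4 hearts. Nothing in the labels says that tissue was pooled from several animals.

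Matricellular proteins are secreted into the extracellular matrix but act as signals rather than as scaffold. Thrombospondin 1 binds the receptors CD36 and CD47 and can activate latent TGF-beta, and platelets carry it in their granules. CCN proteins bind integrins and growth factors, and Ctgf and Cyr61 are widely used as target genes of the transcriptional coactivators YAP and TAZ, which act through TEAD factors. All 3 genes are known in the heart as responders to wall stress and injury.

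Values are normalised reads, the read count of a locus divided by the size factor of its library. Whole reads were recovered in all libraries, with totals of 108345923 to 160670654 reads, and 14424 loci had a mean of 50 or more. Symbols other than those of the 3 genes come from matching chains of exon and intron lengths to a later annotation, as described under processing. The same match gave Thbs1, Ccn2 and Ccn1 for the 3 loci. Among marker genes of heart muscle, Actc1 (cardiac actin) averaged 1388900 normalised reads and Ryr2 (the calcium release channel) 376766. Myh4 (a fast skeletal muscle myosin) was at 0 in all 4 libraries. Myl7 (the atrial light chain), with a mean of only 36.2, ran from 2.27 in 8R to 118 in 12RL. Nppa, also listed as atrial, averaged 17713 and ran from 15578 in 7LR to 18866 in 8R, a ratio of 1.21.

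The locus of Thbs1, on the plus strand at chr2:117937658-117952869 of mm9, held 2 transcript models, both from UCSC and both of 22 exons. Their spliced lengths were 5802 and 5799 bases. They differ in exon 5 only, which is 203 bases long in one and 200 in the other, because the splice acceptor lies 3 bases further on. The affected bases, chr2:117940387-117940389, are given in capitals in the spliced sequence around the junction of exons 4 and 5, taken from the GENCODE M21 transcript of the gene (GRCm38), with 24 bases on each side. Both forms are printed because they are the only difference between the models of this locus, and the counts, which are per locus, do not separate them.
Thbs1 longer form: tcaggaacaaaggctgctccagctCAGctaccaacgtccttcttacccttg
Thbs1 shorter form: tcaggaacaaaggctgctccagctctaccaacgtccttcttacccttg

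The Ctgf locus, on the plus strand at chr10:24303080-24318486, held a UCSC model of 6 listed exons and 2329 spliced bases and an assembled model of 7 exons. The assembled model has an exon of 9 bases that lies 12233 bases before the start of the UCSC model. Its next exon begins 134 bases after that start, so it lacks the first part of the UCSC first exon. Its spliced length is 2204 bases. The Ctgf locus overlaps an opposite-strand locus at chr10:24261783-24315717, with which it shares 193 exon bases. Assembled models of that locus have a junction between the same positions as the one after the exon of 9 bases. The Cyr61 locus, on the minus strand at chr3:145309940-145312945, held a single model, from UCSC, of 5 exons and 2019 bases. An opposite-strand locus without a UCSC model, at chr3:145312884-145340770, begins 62 bases inside the first exon of Cyr61 and runs 27825 bases away from it in 5 assembled models. No locus overlapped Thbs1.

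**Figure D1:**
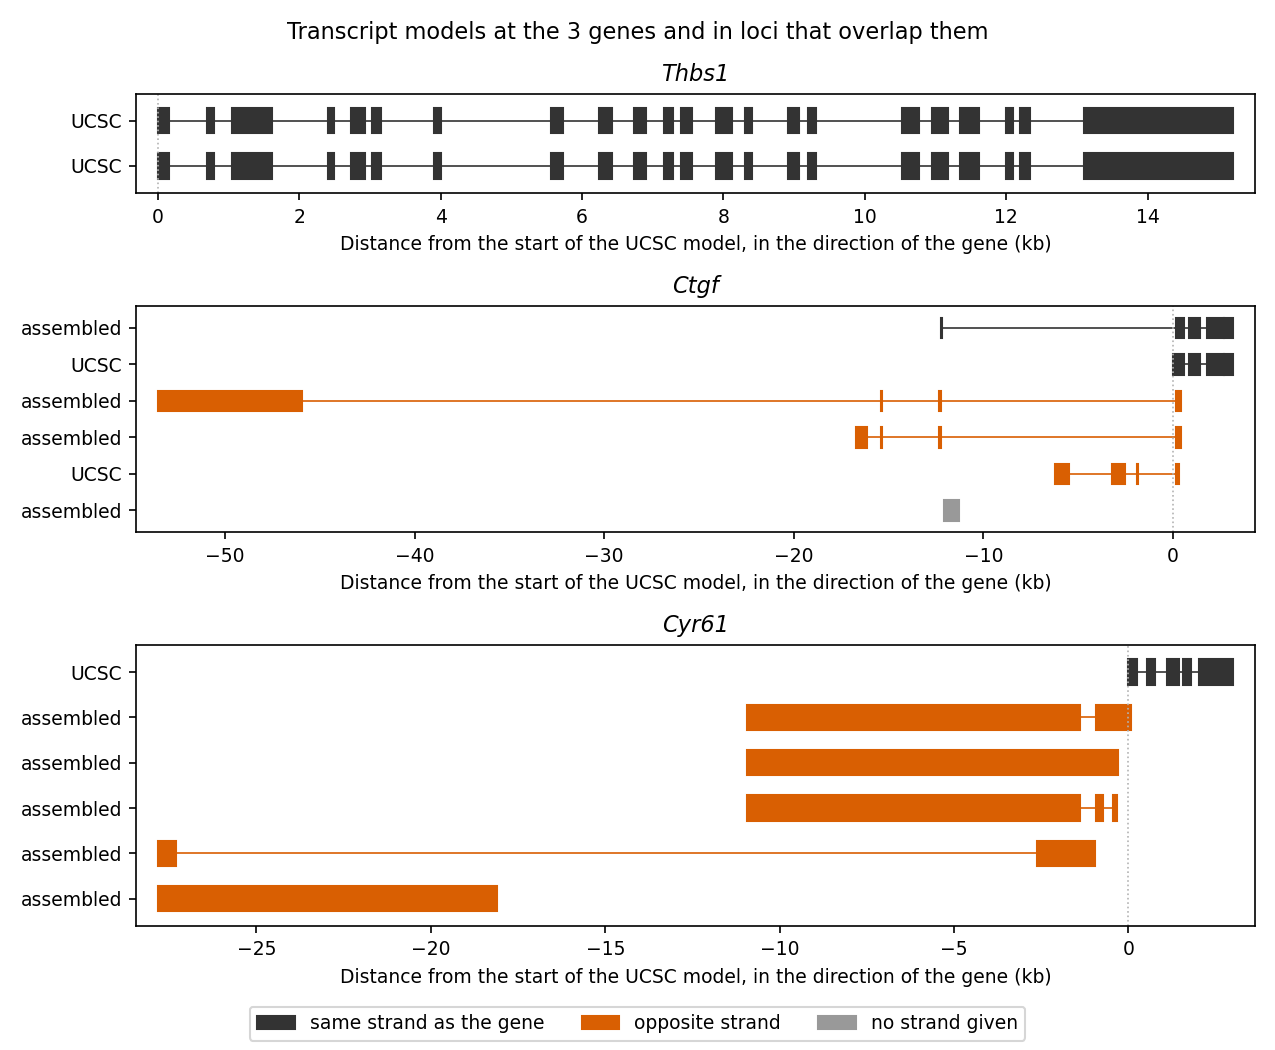
Exons (boxes) of each transcript model at Thbs1, Ctgf and Cyr61 and in overlapping loci, against the distance in kb from the start of the UCSC model in the direction of the gene; dark boxes are on the gene's own strand, orange on the opposite strand and grey without a strand. Thbs1 has 2 models and no overlapping locus, while opposite-strand models overlap the start of Ctgf and of Cyr61.

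Because a transcript model of the opposite strand begins at the start of Cyr61, the 250 bases before that start are shown (RefSeq, GRCm38.p6, minus strand, chr3:145649986-145650235), read in the direction of Cyr61. Capitals mark matches to motifs searched on both strands.
Cyr61 promoter: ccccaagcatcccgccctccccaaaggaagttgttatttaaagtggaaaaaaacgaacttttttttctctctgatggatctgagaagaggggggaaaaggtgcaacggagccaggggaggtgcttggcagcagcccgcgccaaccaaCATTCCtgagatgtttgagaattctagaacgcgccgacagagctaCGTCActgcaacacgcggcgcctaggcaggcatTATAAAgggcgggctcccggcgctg
CATTCC, the letters recognised by TEAD factors, occurred at positions -103 to -98, and 12.6% of 32851 mouse promoter windows of the same length hold it. TGACG, the core of the cyclic AMP response element, matched on the opposite strand at -58 to -54 (17.8% of windows). TATAAA lay at -25 to -20 (12.4% of windows). The 3 matches do not overlap. The letters TGANTCA (AP-1, in 6.75% of windows), CAGAC (SMAD, 42.2%) and the CArG box of serum response factor (1.47%) were not in this window. A match is a description of letters and not of a factor bound there. The promoter table gave an entry for 1 of the 3 genes, and Thbs1 and Ctgf are named only.

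Of the 3 genes, Thbs1 differed most between the hearts. It had 4762 normalised reads in 8R, 2020 in 7LR, 1085 in 12RL and 833 in 3RL, with a mean of 2175 ± 1799 (SD, n = 4). Library 8R was the highest, 7LR lay near the mean, and 12RL and 3RL were the lowest. These values rest on 4189 recovered reads in 8R, 1774 in 7LR, 688 in 12RL and 698 in 3RL. Their 95% counting intervals did not overlap, at 4619 to 4909 in 8R, 1927 to 2117 in 7LR, 1005 to 1169 in 12RL and 773 to 897 in 3RL. Such exact Poisson intervals cover counting error only. The highest library was 5.72 times the lowest and 2.36 times the next, and without 8R the highest was 2.42 times the lowest. Without 8R the mean was 1313.

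Ctgf varied less. It had 8882 normalised reads in 8R, 9412 in 7LR, 7231 in 12RL and 5107 in 3RL, a mean of 7658 ± 1938 (SD, n = 4). Here 7LR was the highest, with 8R close to it, and 3RL the lowest, as for Thbs1. The highest-to-lowest ratio was 1.84 and the highest-to-next ratio 1.06. Without 3RL the first of these was 1.30, so that library sets much of the spread of Ctgf. The opposite-strand locus that shares 193 bases with it had 472 in 8R, 500 in 7LR, 435 in 12RL and 426 in 3RL. Whether the counting used strand is not given in the sources used here. Reads from the shared bases may have been counted to either locus or to neither. The libraries of the opposite-strand locus stood in the same order as those of Ctgf, with 7LR highest and 3RL lowest, at a ratio of 1.17. Counting intervals were not computed for that locus, so its order may lie within counting error.

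Cyr61 was nearly level over the hearts. It had 5643 normalised reads in 8R, 4472 in 7LR, 4878 in 12RL and 4917 in 3RL, a mean of 4978 ± 487 (SD, n = 4). Library 8R was the highest and 7LR, which was highest for Ctgf, was the lowest, at a ratio of 1.26. The counting intervals of 3RL (4768 to 5069) and 12RL (4708 to 5053) overlapped. The divergent locus at its start had 191 in 8R, 146 in 7LR, 196 in 12RL and 128 in 3RL. It was lowest in 3RL and highest in 12RL, unlike Cyr61, with 8R close to 12RL. Counting intervals were not computed for that locus, which shares 62 exon bases with Cyr61.

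**Figure D2:**
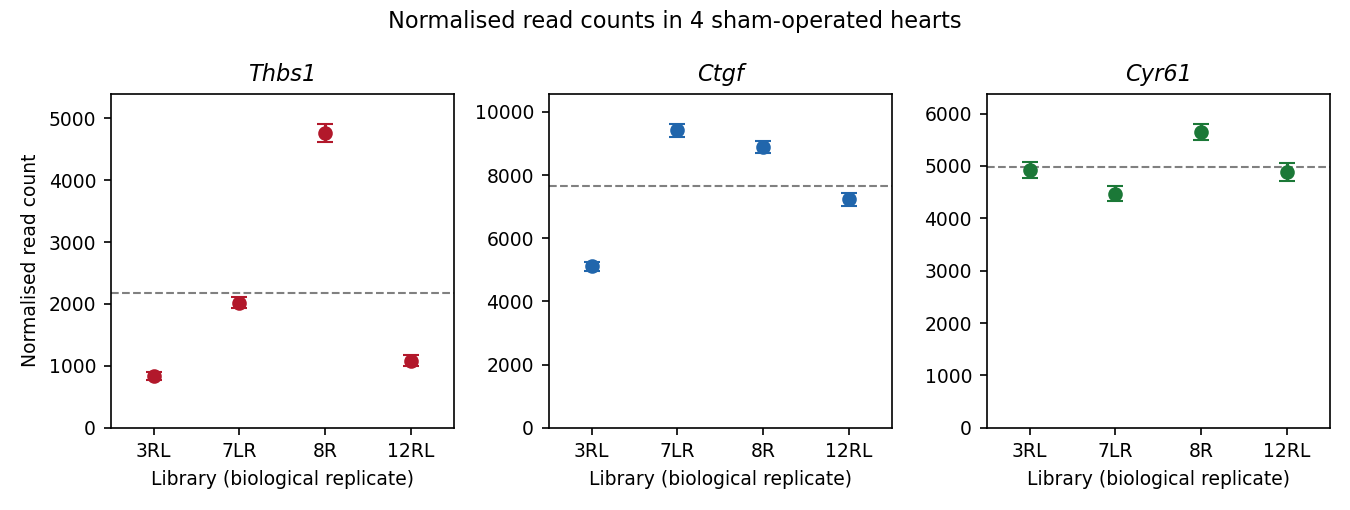
Normalised read counts (y axis, from 0) of Thbs1, Ctgf and Cyr61 in the 4 Sham libraries (x axis); points are single libraries, bars are 95% exact Poisson counting intervals and the dashed line is the mean of the 4. Thbs1 reaches 4762 in 8R against 833 in 3RL, Ctgf runs from 5107 to 9412 and Cyr61 from 4472 to 5643.

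Set against the 14424 loci, the 3 genes ran from a rare to an ordinary spread. The coefficient of variation (CV, the SD over the mean) was 82.7% for Thbs1, 25.3% for Ctgf and 9.79% for Cyr61, where the median locus had 10.6%. A CV at least as high was found in 25 of 14424 loci for Thbs1 (0.173%), in 10.4% for Ctgf and in 54.6% for Cyr61. Without 8R the share was 1.501% for Thbs1, and without 3RL it was 35.1% for Ctgf. Among loci within 1.5 times the same mean, 2 of 2583 reached the CV of Thbs1, 54 of 2199 that of Ctgf and 1005 of 2630 that of Cyr61. All these counts and shares include the gene itself. Of the 3 genes, Thbs1 alone had a highest-to-lowest ratio of 2 or more, which 6.59% of the loci had. Its highest library was 8R, and 1.64% of the loci had both that ratio and 8R as their highest library. As the genes were proposed on such values, nothing is read from these ranks. Library 8R was highest for Thbs1 and Cyr61, as for 38.6% of loci, and 7LR for Ctgf, as for 18.7%. Library 3RL was lowest for Thbs1 and Ctgf, as for 21.7% of loci, and 7LR for Cyr61, as for 29.1%. By Dixon's ratio no single library stood apart in any of the 3 genes, where an upper library did so in 3.15% of loci and a lower one in 1.45%.

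Loci of the length of Thbs1 deviated little between libraries. Over 1445 loci with a UCSC model within 1.2 times the length of Thbs1, the median log2 deviation from the mean of the 4 libraries was -0.07 in 8R and 0.05 in 7LR. Thbs1 itself deviated by 1.47 in 8R, 0.23 in 7LR, -0.66 in 12RL and -1.04 in 3RL on the log2 scale. With the trend of length removed, its highest-to-lowest ratio was 5.91. For Cyr61, loci of like length had a median deviation of 0.09 in 8R and -0.07 in 7LR, beside 0.19 and -0.15 for the gene itself. Its ratio was 1.11 with the trend removed and 1.12 with equal table totals, so its small spread depended on the scaling and on the trend with length.

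Per kb of the longest spliced UCSC model, Ctgf and Cyr61 lay well above Thbs1. Ctgf averaged 3288 ± 832 normalised reads per kb, Cyr61 2465 ± 241 and Thbs1 375 ± 310 (SD, n = 4 each). Without 8R the mean of Thbs1 was 226 per kb. Thbs1 was the lowest of the 3 in all 4 libraries, at 821 per kb in 8R, 348 in 7LR, 187 in 12RL and 144 in 3RL. Ctgf, from 2193 to 4041 per kb, and Cyr61, from 2215 to 2795, overlapped. Ctgf was the higher of both in 7LR, 8R and 12RL, while in 3RL Cyr61 was higher, with 2435 against 2193. The level per kb was set against 13251 loci with a UCSC model and a mean of 50 or more. Of these, 17.7% were at or above Ctgf, 22.7% at or above Cyr61 and 67.9% at or above Thbs1.

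**Figure D3:**
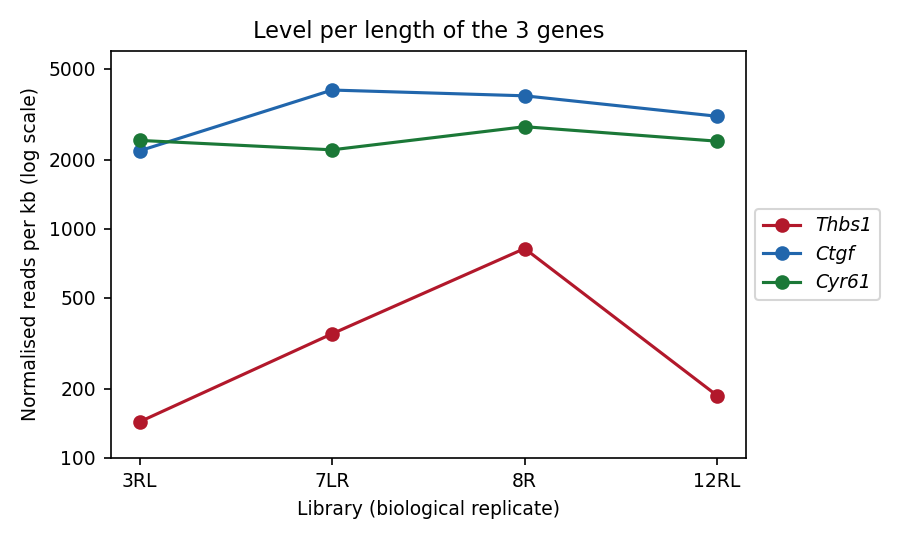
Normalised reads per kb of the longest spliced UCSC model (y axis, log scale) of Thbs1, Ctgf and Cyr61 in the 4 Sham libraries (x axis); lines join the values of a gene for reading only. Thbs1 is lowest in every library, and Ctgf lies above Cyr61 in all but 3RL.

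Within a heart, the ratios that include Thbs1 had the widest ranges. As a share of the per-kb level of Cyr61, Thbs1 stood at 0.294 in 8R, 0.157 in 7LR, 0.0774 in 12RL and 0.0590 in 3RL, a 4.98-fold range. Against Ctgf it stood at 0.215 in 8R, 0.0862 in 7LR, 0.0602 in 12RL and 0.0655 in 3RL, a 3.57-fold range. The ratio of Thbs1 to Ctgf was thus high in 8R and similar in the other libraries. Ctgf over Cyr61 was 1.36 in 8R, 1.82 in 7LR, 1.28 in 12RL and 0.900 in 3RL, a 2.03-fold range.

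The profiles over the hearts were set side by side as the root mean square difference of log2 deviations over the 4 libraries, where 0 means the same profile. Thbs1 and Ctgf differed by 0.73. Of 13251 loci with a UCSC model and a mean of 50 or more, 213 (1.61%) were closer to Thbs1 than Ctgf was. In the other direction 98.5% of loci were closer to Ctgf than Thbs1 was. Thbs1 and Cyr61 differed by 0.90, with 20.5% of loci closer to Thbs1 and 99.7% closer to Cyr61. Ctgf and Cyr61 differed by 0.36, with 44.8% of loci closer to Ctgf and 92.4% closer to Cyr61. From a flat profile Thbs1 differed by 0.97, Ctgf by 0.35 and Cyr61 by 0.12, so Ctgf was nearer to a flat profile than to Cyr61. With 4 libraries many loci share a profile by their order alone: the order of Thbs1, with 8R highest, then 7LR, 12RL and 3RL, was that of 4.46% of loci. The order of Ctgf was that of 2.90%, and the order of Cyr61 that of 13.1%.

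The loci most like Thbs1 were a locus at chr17:28660226-28662268, at a difference of 0.11, a locus at chr2:19574413-19582933, at 0.13, and Fosl2, at 0.20. Fosl2 encodes a Fos-family subunit of the transcription factor AP-1. It had 13334 normalised reads in 8R, 6323 in 7LR, 3918 in 12RL and 3384 in 3RL. The locus on chromosome 2 had 10139.5 in 8R, 3791 in 7LR, 2647 in 12RL and 1788 in 3RL, a ratio of 5.67, and neither it nor the locus on chromosome 17 matched a symbol. The locus on chromosome 17 had few reads, with 147.8 in 8R, 74.0 in 7LR, 34.7 in 12RL and 29.8 in 3RL, a mean of 71.6. At a minimum mean of 200, 2 of the 3 loci were kept. Without 8R none of the 3 was among the closest 3.

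Closest to Ctgf were Pde7a (a cyclic AMP phosphodiesterase), at 0.03, Klf15 (a transcription factor of heart and metabolism), at 0.05, and Slc25a33 (a mitochondrial carrier), at 0.05. Klf15 had 11050 in 8R, 12168 in 7LR, 9378 in 12RL and 7007 in 3RL. Closest to Cyr61 were Emc4, Mtg2 and Ndufs4 (a subunit of respiratory complex I), each at 0.01 and with a ratio of 1.25 to 1.27. For Ctgf and for Cyr61 none of the closest 3 was kept when any library was left out, so the names describe these 4 libraries only.

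Other thrombospondins and CCN genes did not share the spread of Thbs1. Of 8 listed, 7 were measured, with a median highest-to-lowest ratio of 1.37, where all loci had 1.26. Comp (thrombospondin 5) alone reached 2 or more, as did 6.59% of all loci. It had 481 normalised reads in 8R, 206 in 7LR, 237 in 12RL and 244 in 3RL, high in 8R as Thbs1 was, but not graded over the other libraries. Thbs2 was more abundant than Thbs1 in read count and nearly level, at 4857 in 8R, 6011 in 7LR, 5873 in 12RL and 5361 in 3RL, with 8R the lowest. Ccn5 (Wisp2), a CCN protein without the last domain of the family, ran from 815 in 12RL to 1482 in 8R, and Ccn3 (Nov) from 359 to 378. None of the 7 had the order of libraries of Thbs1 or of Ctgf, and 2, Thbs4 and Comp, had that of Cyr61. Of all loci, 4.46% had the order of Thbs1, 2.90% that of Ctgf and 13.1% that of Cyr61.

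The coactivators that act on Ctgf and Cyr61 were level. Yap1 averaged 10314 ± 340 normalised reads and Wwtr1, which encodes TAZ, 11250 ± 388 (SD, n = 4 each). Of 13 listed genes of this group 9 were measured, with a median ratio of 1.22. Of the measured genes 0 had a ratio of 2 or more, beside 6.59% of all loci. The widest was Ankrd1, a stress-responsive cardiac target gene, with 202065 in 8R, 165303 in 7LR, 117923 in 12RL and 126219 in 3RL. Ankrd1 was highest in 8R, as Thbs1 was, but lowest in 12RL. Amotl2, another target gene, had 10825 in 8R, 10547 in 7LR, 9553 in 12RL and 8894 in 3RL. At the authors' scaling its libraries stood in the order of Thbs1. Its log2 deviations of 0.125 in 8R and 0.088 in 7LR were close. Scaling to equal table totals shifts 8R by -0.097 and 7LR by 0.073, which puts 7LR above 8R. Amotl2 lay nearer to Cyr61 (0.14) and Ctgf (0.24) than to Thbs1 (0.86). Of the TEAD genes, Tead4 had the order of Ctgf and a ratio of 1.31, while Tead1 had a ratio of 1.23, Tead2 of 1.21 and Tead3 of 1.11. The 7 genes of serum response factor and its targets had a median ratio of 1.37, with 0 at 2 or more, beside the same 6.59%. None of them had the order of any of the 3 genes.

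Among 8 genes of the TGF-beta pathway, Skil and Smad7 had the order of libraries of Thbs1, and Tgfbr1 that of Ctgf. Skil, a repressor of SMAD factors that TGF-beta induces, had 5921 in 8R, 5151 in 7LR, 4107 in 12RL and 3334 in 3RL. It lay nearer to Ctgf, at 0.12, with 30 loci closer (Ctgf itself counted), than to Thbs1, at 0.67. Smad7, an inhibitory SMAD, had 4413 in 8R, 3464 in 7LR, 3024 in 12RL and 2928 in 3RL. Smad7 also lay nearer to Cyr61 (0.18) and Ctgf (0.24) than to Thbs1 (0.74). The ligand genes Tgfb1 (3470), Tgfb2 (1214) and Tgfb3 (2731) were each highest in 3RL, where Thbs1 and Ctgf were lowest. Of 14424 loci, 3449 were highest in 3RL. Tgfb3 was nearly as high in 8R, at 2724. The median ratio of the 8 was 1.26, with 0 at 2 or more, beside 6.59% of all loci. Over all lists 4 of 43 genes had the order of Thbs1 at the authors' scaling, beside 4.46% of all loci. Such counts are a description and were not recomputed under other scalings.

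**Figure D4:**
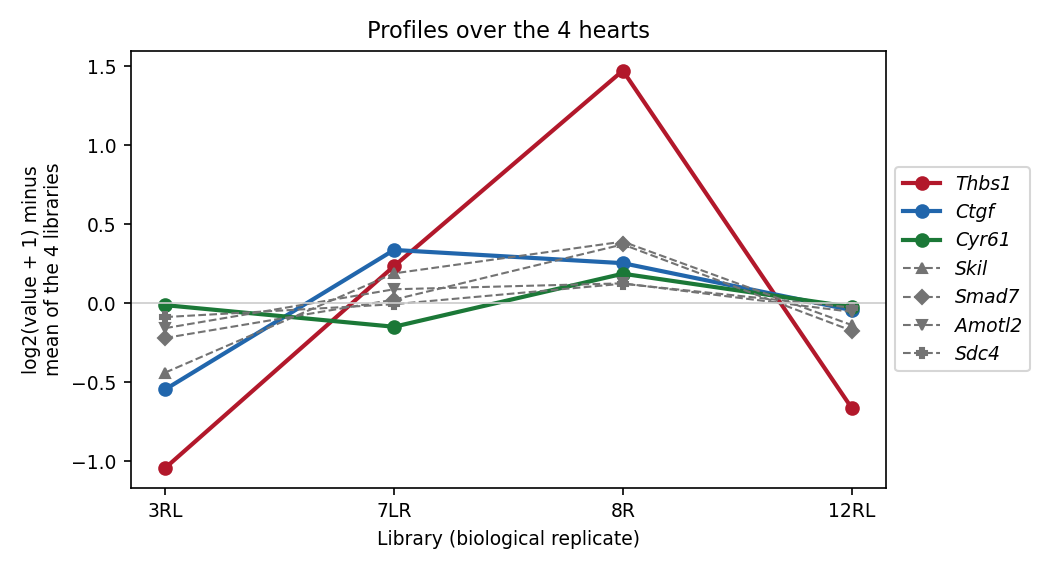
Deviation of log2(value + 1) from the mean of the 4 libraries (y axis) in each Sham library (x axis) for Thbs1, Ctgf and Cyr61 (coloured) and for the 4 listed genes whose libraries stand in the order of Thbs1 (grey, picked after their values were seen). Thbs1 spans from -1.04 in 3RL to 1.47 in 8R, and the grey profiles stand in the same order over a smaller range. All values and orders are at the authors' scaling.

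By the median ratio, receptors of these proteins were the most level group. All 8 were measured, with a median ratio of 1.14 and 0 at a ratio of 2 or more, beside 6.59% of all loci. The widest were Itgb3, at 1.38, Lrp6, at 1.37, and Lrp1, at 1.30, where the median locus had 1.26. Cd36 averaged 261342 ± 9658 and Cd47 8964 ± 59.8 normalised reads (SD, n = 4 each), a CV of 3.70% and 0.667%. Itgb1, the shared beta chain of most matrix integrins, averaged 58464 ± 1896, and Itgb3, whose product pairs with the alpha chain of Itgav, 369 ± 52.2. Sdc4, a heparan sulfate coreceptor, had the order of Thbs1 at the authors' scaling, between 2927 in 3RL and 3388 in 8R. Equal table totals would put its 7LR above its 8R. It lay nearer to Cyr61 (0.09) than to Thbs1 (0.89).

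Other matricellular genes varied more, with a median ratio of 1.94 over 4 measured of 5 listed, and 1 at 2 or more. None of the 4 had the order of Thbs1, and 1, Fbln1, had that of Cyr61, beside 13.1% of all loci. Fbln1 varied less than the others, with a ratio of 1.30. It had 12826 in 8R, 9856 in 7LR, 10222 in 12RL and 11110 in 3RL. Sparc had 53415 in 8R, 49021 in 7LR, 35709 in 12RL and 71384 in 3RL. Tnc (tenascin C) had 186 in 8R, 187 in 7LR, 117 in 12RL and 272 in 3RL, and Postn (periostin) 7214 in 8R, 5450 in 7LR, 3842 in 12RL and 6771 in 3RL. Both Sparc and Tnc were highest in 3RL, the lowest library of Thbs1 and Ctgf, as were 3449 of 14424 loci. Spp1 (osteopontin) had a mean of 39.8, under the minimum of 50. Over all 6 lists, 43 of 49 genes were measured and 2 had a ratio of 2 or more (Comp and Tnc), beside 6.59% of all loci.

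**Figure D5:**
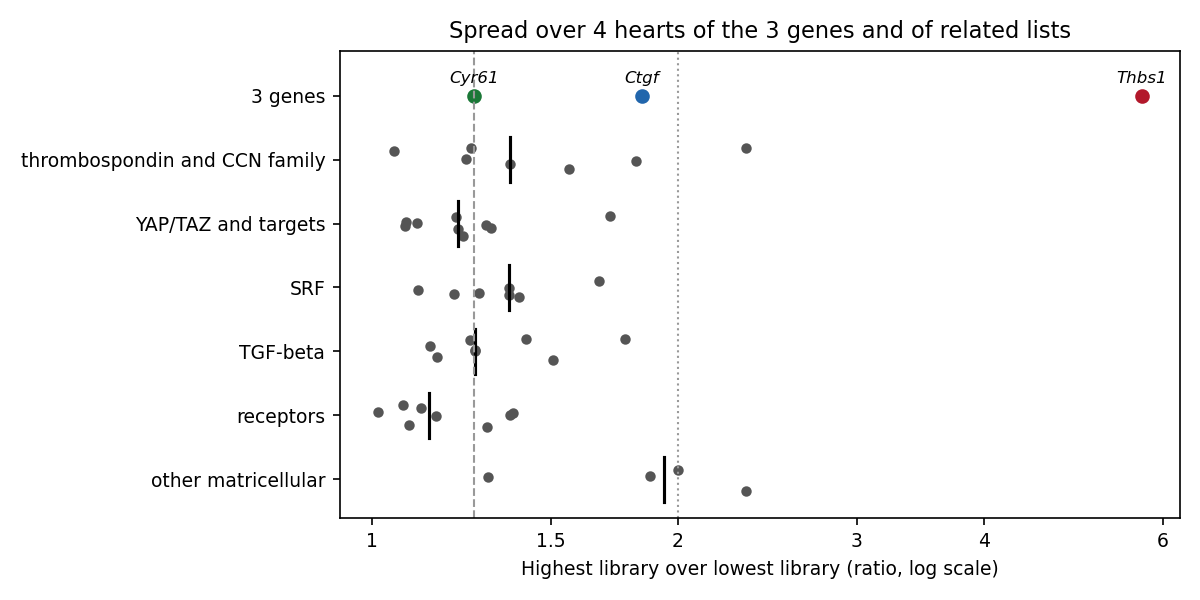
Ratio of the highest to the lowest of the 4 Sham libraries (x axis, log scale) for Thbs1, Ctgf and Cyr61 and for each measured gene of 6 related lists (rows); black bars are list medians, the dashed line is the median of all loci (1.26) and the dotted line a ratio of 2. Thbs1, at 5.72, lies beyond every listed gene.

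Markers of other cells that carry these proteins are given beside Thbs1, and their part in its values was not tested. In bulk tissue, more cells of a type and more RNA per cell cannot be told apart. The 3 platelet genes (Ppbp, Pf4 and Itga2b), all found, summed to 1686 in 8R, 1512 in 7LR, 959 in 12RL and 1450 in 3RL. The sum was highest in 8R, as Thbs1 was, at a ratio of 1.76, and lowest in 12RL. Pf4, with the most reads of the 3, was highest in 8R (1178), while Ppbp (278) and Itga2b (385) were highest in 7LR. The 3 fibroblast genes (Col1a1, Dcn and Pdgfra) summed to between 68758 in 7LR and 78439 in 3RL. Dcn made up most of that sum, Col1a1 ran from 9157 in 12RL to 21094 in 3RL, and Pdgfra from 4935 in 8R to 6360 in 12RL. The 3 endothelial genes (Pecam1, Cdh5 and Kdr) summed to between 79215 in 8R and 110676 in 3RL. All 3 were highest in 3RL, as were 3449 of 14424 loci. Kdr was lowest in 8R, Pecam1 in 7LR and Cdh5 in 12RL. Both smooth muscle genes (Myh11 and Acta2) were found, and their sum ran from 16380 in 8R to 23241 in 3RL, with Myh11 lowest in 8R and Acta2 in 7LR. Of 3 macrophage genes 2 were found, with a sum from 6297 in 12RL to 8954 in 3RL. None of these lists had a gene at 0 in all libraries. Acta1, the skeletal actin gene that heart muscle also expresses, had 50459 in 8R, 18333 in 7LR, 20095 in 12RL and 37297 in 3RL. It was also highest in 8R, as were 38.6% of loci. The heart muscle genes were split. Actc1 was highest in 8R (1640530), while Ryr2 was highest in 12RL (473182) and lowest in 8R (294346). The red cell genes were not measured alone.

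The nearest loci with a mean of 10 or more beside Thbs1 lay far from it. Rasgrp1, 769044 bases below it, had 29.6 in 8R, 41.0 in 7LR, 58.3 in 12RL and 60.9 in 3RL, so 8R was the lowest. Gpr176, 149976 bases above it, had 44.3 in 8R, 54.7 in 7LR, 22.1 in 12RL and 33.4 in 3RL. Its higher libraries, 7LR and 8R, were also the higher ones of Thbs1. Beside Ctgf, Enpp1, 42730 bases above, was level at 640 ± 29.2 (SD, n = 4). Beside Cyr61, an unnamed locus at chr3:145305125-145308547, 1392 bases below it and on the opposite strand, had 61.4 in 8R, 55.8 in 7LR, 45.7 in 12RL and 56.1 in 3RL.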

How the data were processed

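Long RNA of 4 sham hearts was sequenced. The deposited signal values per locus were made by the authors as read counts divided by 1 size factor per library. Every value was a whole multiple of 1 step within 0.001 (100% of values), so whole reads were recovered. No count test can be made with 1 group, and nothing shows whether spread between libraries is technical. The authors also deposited exon positions (other values) of 77650 transcript models, in mm9 coordinates, with no library named in the file. Tools named in the submitters' processing notes are DESeq, HTSeq 0.5.4p2, Cufflinks 2.0.2 and TopHat2 2.0.5. Neither strandedness nor counting mode is stated there.

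The 3 genes and all lists were chosen with earlier results of these data known. Loci carry no symbols. A symbol was given where a UCSC model with at least 2 introns had a chain of intron and inner exon lengths identical to that of a GENCODE M21 transcript on the same chromosome and strand, with gaps under 10 bases joined, and to 1 gene alone. This named 16187 of 26078 loci with a UCSC model, and no coordinate was converted. Merged loci of several genes were left out of the lists. A further listed gene is not reported here.

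The background was every locus whose mean reached 50. Likeness used log2(value + 1), so differences of low loci are understated. A library stood apart where Dixon's ratio passed 0.829. Named were the 3 genes, the 3 loci most like each, the nearest loci and the listed genes. Alternatives were other scalings (with TMM from edgeR 4.0.16 in R 4.3.3), pseudocounts, minimum means, lengths, removal of the trend with length by a running median of 501 loci, and leaving out each library. The steps, tested on simulated data, used Python 3.11.15, numpy 2.4.6, scipy 1.17.1, pandas 2.3.3 and matplotlib 3.10.9.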

Additional observations from a re-analysis of the deposited data

Results flagged for a closer look

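Among 82 loci examined, Thbs1, Ctgf and Cyr61 included, a single library lay far from the others in 5, none of them one of these 3 genes. Chance meets this criterion in about 1 of 20 groups, and of all loci with a mean of 50 or more it was met by 3.15% for the highest library and 1.45% for the lowest. Thbs3 was low in 12RL, at 768 normalised reads, with the next library at 939. Comp was high in 8R, at 481, with the next at 244. Pecam1 was high in 3RL, at 27875, with the next at 22705. Myh11 was low in 8R, at 6279, with the next at 8689. Myl7 was high in 12RL, at 118, with the next at 12.5. Of the 82 loci, 75 had a mean of 50 or more. Myl7, with a mean of 36.2, was not one of them, so those shares do not cover it.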

How the results depend on the processing

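All 3 genes kept their level within 1 SD and Thbs1 and Ctgf kept the order of their libraries under every scaling. For Cyr61 the median of ratios put 12RL above 3RL. Orders of the listed genes were taken at the authors' scaling only. None of the 3 had a library standing apart with equal table totals, TMM, the median of ratios or log2 values. The share of loci with a CV at or above that of Thbs1 was 0.719% at a minimum mean of 10, 0.0914% at 200, 13.5% with no minimum, 0.284% by the SD of log2, 0.106% among loci with a UCSC model and 0.0624% by the residual at the same level, against 0.173%. That of Ctgf was 24.5% at a minimum mean of 10, 5.74% at 200, 46.8% with no minimum and 2.88% by the residual, against 10.4%, and that of Cyr61 85.6% with equal table totals, against 54.6%. The highest-to-lowest ratio of Cyr61 was 1.12 with equal table totals and 1.11 with the trend of length removed, and its highest-to-next ratio 1.03 with the trend removed. Leaving out 1 library gave ranges. The highest-to-lowest ratio ran from 2.42 (without 8R) to 5.72 for Thbs1, from 1.30 (without 3RL) to 1.84 for Ctgf and from 1.099 (without 8R) to 1.26 for Cyr61. The highest-to-next ratio ran from 1.86 to 4.39 for Thbs1, 1.06 to 1.30 for Ctgf and 1.01 to 1.16 for Cyr61. The CV share ran from 0.132% to 1.501% for Thbs1, 6.79% to 35.1% for Ctgf and 41.9% to 75.3% for Cyr61, and the level from 1313 (without 8R) to 2622, 7073 to 8508 and 4756 to 5146 for the 3 genes in that order. Of the closest 3 loci, 0 to 2 were kept for Thbs1 and 0 to 0 for Ctgf and Cyr61. The cause of these changes was not tested. No paired analysis was possible because the libraries belong to a single group. The smallest count behind a value of the 3 genes was 688 reads.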
